A study of Homo sapiens with 13 samples.

Results

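The comparison described here sets OVCAR3 cells that expressed a UAB peptide against OVCAR3 cells that expressed a scrambled peptide. It rests on 4 of the 13 libraries of the series, 2 labelled UAB peptide expression and 2 labelled scramble control, and it covers every gene counted. OVCAR3 is an established line grown from the ascites of a patient with serous ovarian carcinoma. Both groups were kept for 6 days in 2000 ng/mL doxycycline, an antibiotic widely used to switch on inducible transgenes, so the drug is common to scrambled and UAB libraries and its own effect cannot be seen between them. The labels do not name the promoter that drives the peptides, nor say whether the cells were clones or pools, whether replicates were separate cultures, or how much peptide was made. P-values therefore measure the spread between these libraries, which may be technical. Poly-A RNA was sequenced and the deposited values are read counts per gene.

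RSF1 is a histone chaperone that joins the ATPase SMARCA5 in a chromatin remodelling complex, and its UAB region binds histone H2A that carries ubiquitin. That ubiquitin mark is laid down by Polycomb repressive complex 1 and taken off by deubiquitinases such as the BAP1 complex. Polycomb complexes are known for keeping developmental transcription factors silent in differentiated cells. The study's title names the recognition of this mark as a treatment target in ovarian cancer, and the comparison asks which transcripts differ when the UAB peptide is expressed.

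The scrambled libraries held 24026993 and 23256691 counts and the UAB libraries 20076382 and 18160558. Levels below are CPM, the counts of a gene brought to a common library total, with totals scaled by TMM, a method that evens out differences in composition between libraries. Unless stated otherwise, the values of a gene are listed as scrambled 1 and scrambled 2, then UAB 1 and UAB 2. Log2 fold changes are UAB over scrambled, with their standard error after the sign ±, and the adjusted p comes from edgeR's quasi-likelihood test with Benjamini-Hochberg adjustment over all tested genes. A gene is said to have risen or fallen only where that adjusted p is under 0.05. Where leaving out 1 library brings it to 0.05 or above, the p without that library or the loss of the call is given. The 4 libraries leave 2 residual degrees of freedom. With 1 library left out, 1 degree is left and the fit took the spread of every gene from the trend over all genes, so a call kept there does not draw on the gene's own spread. Libraries with the same peptide correlated at 0.993 and 0.993 (Pearson, log2 CPM) and libraries with different peptides at 0.976 to 0.982. Mitochondrially encoded genes took 7.23 and 7.48 percent of the counts with the scrambled peptide and 6.22 and 6.57 percent with the UAB peptide.

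The labelled cell type was checked against 12 markers of serous ovarian carcinoma, and all 12 were detected in every library, none below 1 CPM. PAX8, a transcription factor of the Muellerian lineage, stood at 607 and 716 CPM in the scrambled libraries and 714 and 705 CPM in the UAB libraries and did not pass the test (adjusted p = 0.689). EPCAM, an epithelial adhesion molecule, stood at 301 and 301 CPM in the scrambled libraries and 313 and 339 CPM in the UAB libraries. Markers of immune and endothelial cells were low, but not all those of fibroblasts and mesothelial cells. Of 12 immune cell markers, 8 stayed below 1 CPM in all 4 libraries and 3 of those were listed at 0 throughout, and the summed level of the 12 was 13.4 and 14.4 CPM in the scrambled and 7.35 and 8.73 CPM in the UAB libraries. The called ones among the immune, endothelial and mesothelial markers were CD14 (lower), KDR (higher, but not without scrambled 1 or UAB 1), and CALB2 and MSLN (lower). Of 10 fibroblast markers 5 and of 7 endothelial markers 5 stayed below 1 CPM, with summed levels of 180.4 and 163 against 138 and 158 CPM and of 12.1 and 14.6 against 23.04 and 17.2 CPM. The fibroblast marker FBLN1 alone stood at 130 and 111 against 91.6 and 98.1 CPM. Of 6 mesothelial markers 2 stayed below 1 CPM. Their summed level was 233 and 219 against 112 and 124 CPM and includes MSLN, which is also among the carcinoma markers. In bulk RNA, fewer cells of a type and less RNA per cell cannot be told apart.

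RSF1 itself (ENSG00000048649, chromosome 11, 77660009 to 77820869, GRCh38) stood at 564 and 707 CPM in the scrambled libraries and 787 and 586 CPM in the UAB libraries. The groups overlapped and the difference did not pass the test (log2 fold change 0.11 ± 0.16, adjusted p = 0.724). Its sign turned without scrambled 1 (log2 fold change -0.043) and without UAB 1 (-0.11). The level of RSF1 thus gives no check of the peptide labels, and counts per gene do not separate the line's own RSF1 from transcripts of a construct.

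Of 62703 listed genes, 18359 passed the filter on low counts. With the UAB peptide 1001 rose (5.45% of those tested) and 1003 fell (5.46%), of which 468 and 460 changed at least 2-fold. Without scrambled 1 the counts were 633 and 707, and with any other library left out 801 to 1194 rose and 841 to 1045 fell. The groups did not overlap for any of the called genes. Non-overlap alone is common with 2 libraries a side: 27.4% of all tested genes were higher and 26.7% lower in both UAB libraries than in both scrambled libraries. The median log2 fold change over all tested genes was 0.0089. Among the 2231 tested genes with a mean of at least 100 CPM, 89 rose and 144 fell, and 0 of the rises and 2 of the falls at that level reached 4-fold.

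**Figure D1:**
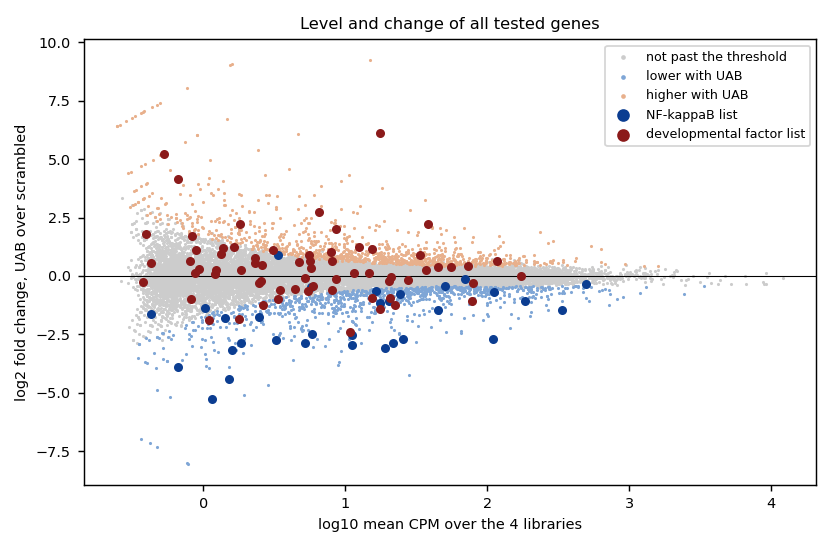
Each point is 1 of the 18359 tested genes, with the log10 of its mean CPM over the 4 libraries on the horizontal axis and its fitted log2 fold change (UAB over scrambled) on the vertical axis. Pale blue and pale orange points are the 1003 genes that fell and the 1001 that rose, grey points did not pass, dark blue points are the 31 tested genes of the NF-kappaB list, which lie below 0 except for TRAF1, and dark red points are the 66 tested developmental transcription factors, which lie on both sides.

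Among called genes with a mean of at least 2 CPM, the largest rises were of genes that were close to silent with the scrambled peptide. A ranking by fold change favours such genes, and they could pass the count filter through their UAB libraries alone. Their low scrambled levels are therefore not read as a result. WSCD2, which encodes a membrane protein with a sulfotransferase-like domain, had 0 and 2 counts with the scrambled peptide and 655 and 507 with the UAB peptide, that is 0 and 0.0864 against 32.1 and 27.7 CPM, a ratio of 698 (95% counting interval 193 to 5772, counting error only). LHX1, a LIM-homeodomain transcription factor of kidney and Muellerian duct development, went from 0.427 and 0.562 to 36.5 and 32.3 CPM (log2 fold change 6.10 ± 0.24, adjusted p = 6.33e-09). PTPRM, a receptor phosphatase that mediates contacts between cells, went from 0.0855 and 0.173 to 10.8 and 7.53 CPM (log2 fold change 6.09 ± 0.43, adjusted p = 7.10e-07). The genes were chosen among those with groups that do not overlap. In all 3 genes both UAB libraries lay far above both scrambled libraries, and the replicates of each peptide lay close together beside that gap.

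Several of the other large rises encode membrane receptors and channels. GABRA2, a subunit of the GABA-A receptor, went from 0.983 and 1.04 to 20.7 and 19.9 CPM (log2 fold change 4.32 ± 0.23, adjusted p = 7.97e-08). TRPC6, a cation channel, went from 0.256 and 0.259 to 5.78 and 4.58 CPM and ADRA2A, an adrenergic receptor, from 0.812 and 0.951 to 13.4 and 11.95 CPM. The remaining ones were the semaphorin SEMA6D (log2 fold change 4.56), the vesicle release protein DOC2B (4.08), the matrix protein VIT (3.78), the gluconeogenic enzyme PCK1 (3.47), the GTPase regulator ARHGAP28 (3.47) and the bone morphogenetic protein BMP3 (3.45). The scrambled libraries of GABRA2, TRPC6 and ADRA2A all lay at or below 1.04 CPM.

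Among called genes with a mean of at least 2 CPM, the zinc finger gene ZFP82 had the largest fall and went from 4.19 and 6.74 to 0.196 and 0.218 CPM (log2 fold change -4.69 ± 0.45, adjusted p = 1.25e-05). Here and below, genes near 0 with the UAB peptide could pass the count filter through their scrambled libraries alone. Their low UAB levels are therefore not read as a result. IDO1, the enzyme that opens tryptophan breakdown, went from 16.8 and 16.5 to 1.18 and 1.15 CPM (log2 fold change -3.83 ± 0.24, adjusted p = 2.73e-07). Its scrambled libraries were nearly equal, as were its UAB libraries. NLRP2, a NOD-like receptor, and RRAD, a small GTPase, also fell (-3.70 and -3.60), although the scrambled libraries of both spread widely, at 11.7 and 21.9 CPM and 10.99 and 4.75 CPM. MFAP5, a microfibril protein (-3.03), CH25H, an oxysterol-producing enzyme (-2.99), and IGFN1 (-2.95) fell too. The other 5 of the 12 largest falls are taken up below: the channel subunits CACNG7 and CACNG6, the chemokines CXCL8 and CCL2, and LCN2.

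**Figure D2:**
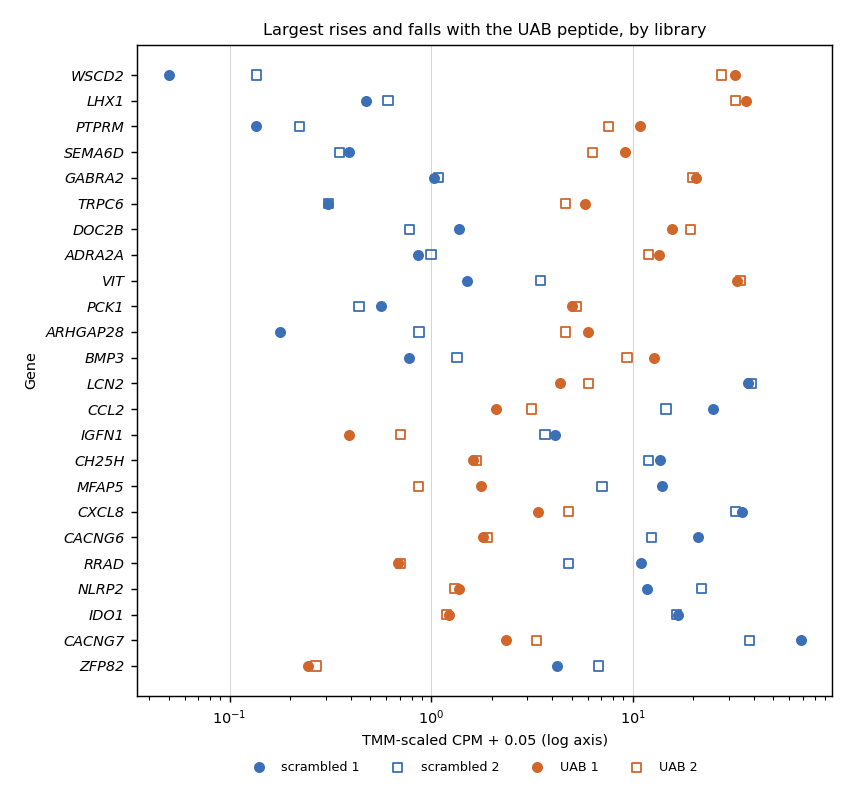
The 12 largest rises (top) and 12 largest falls (bottom) among called genes with a mean of at least 2 CPM are shown by library, with TMM-scaled CPM plus 0.05 on a log axis. Blue marks are scrambled libraries, orange marks UAB libraries, filled circles replicate 1 and open squares replicate 2. The choice of genes required that the 2 orange marks lie on one side of the 2 blue marks, as for LHX1 at 36.5 and 32.3 against 0.427 and 0.562 CPM.

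Among abundant transcripts, ITGB5, the beta subunit of a vitronectin-binding integrin, went from 102 and 97.7 to 372 and 373 CPM (log2 fold change 1.90 ± 0.13, adjusted p = 6.22e-07). BMP7, a secreted bone morphogenetic protein, went from 142 and 164 to 421 and 439.8 CPM (log2 fold change 1.49 ± 0.13, adjusted p = 6.65e-06) and FGFR1, a fibroblast growth factor receptor, from 61.00 and 78.6 to 196 and 185 CPM (log2 fold change 1.45 ± 0.15, adjusted p = 2.19e-05). THSD4, a microfibril-associated protein, and TMEM100, a small membrane protein, also rose (1.73 and 1.29), as did FLG, the epidermal protein filaggrin (1.39), whose scrambled libraries lay apart at 104 and 193 CPM and which DESeq2 did not call (adjusted p = 0.0858). The largest falls at this level, beside CXCL1, KRT4 and FOS below, were of the retinoid-inducible receptor GPRC5A, which went from 326 and 283 to 102 and 83.5 CPM (log2 fold change -1.71 ± 0.15, adjusted p = 5.16e-06), the glutathione transferase GSTM4 (-1.70) and the laminin chain LAMA3 (-1.62).

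NF-kappaB is a family of transcription factors that cytokine and stress receptors release from inhibitors in the cytoplasm, and its targets include chemokines, cytokines and its own inhibitors. Of 35 listed NF-kappaB and inflammatory targets 31 were tested, 24 fell, 0 rose and 7 did not pass, against 5.46% lower of all tested genes. This and the other lists were chosen with earlier results of these data known. Their shares therefore describe the lists and are no independent support. Their median log2 fold change was -1.77, and 22 to 24 fell with any 1 library left out (TRAF1 rose without scrambled 1, adjusted p = 0.0239). The 4 members below the filter were CXCL5, CCL5, IL1B and VCAM1. Here and below, a pair of counts in brackets gives the members that rose and that fell with the named library left out, wherever either moved by more than 1.5 times. The summed level of the list went from 2066 and 2222 to 1075 and 1074 CPM. Every list count below is to be read beside the shares over all tested genes, 5.45% higher and 5.46% lower.

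Chemokines, which draw leukocytes to a tissue, were 8 of the 24. CXCL8, the neutrophil chemokine interleukin-8, stood at 34.97 and 32.5 CPM in the scrambled libraries and 3.33 and 4.75 CPM in the UAB libraries (log2 fold change -3.07 ± 0.20, adjusted p = 4.00e-07). CXCL1, which acts on the same receptor family, stood at 188 and 194 CPM in the scrambled libraries and 27.9 and 31.7 CPM in the UAB libraries (log2 fold change -2.68 ± 0.14, adjusted p = 7.97e-08). CXCL2 went from 43.05 and 45.2 to 6.91 and 6.71 CPM (log2 fold change -2.69 ± 0.16, adjusted p = 2.11e-07). For each of them the scrambled libraries differed from each other by far less than from either UAB library. CCL2, a monocyte chemokine, went from 25.01 and 14.6 to 2.06 and 3.11 CPM (log2 fold change -2.94 ± 0.28, adjusted p = 1.15e-05), and CCL20, which attracts dendritic and T cells, from 6.03 and 5.23 to 0.735 and 0.928 CPM (log2 fold change -2.76 ± 0.32, adjusted p = 7.67e-05).

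Of the cytokines, IL6 went from 3.42 and 3.02 to 0.588 and 0.273 CPM (log2 fold change -2.87 ± 0.44, adjusted p = 7.12e-04) and TNF from 3.12 and 2.64 to 0.294 and 0.327 CPM (log2 fold change -3.19 ± 0.46, adjusted p = 3.94e-04). IL32 went from 11.2 and 6.91 to 0.784 and 1.75 CPM (log2 fold change -2.85 ± 0.36, adjusted p = 1.29e-04) and LIF, a cytokine of the interleukin-6 family, from 22.4 and 26.3 to 10.6 and 11.3 CPM (log2 fold change -1.15 ± 0.17, adjusted p = 4.24e-04). IL1A did not pass, and its level was higher in scrambled 2 alone, at 0.684 and 2.29 CPM in the scrambled libraries and 0.735 and 0.382 CPM in the UAB libraries. The acute-phase and innate defence proteins fell as well. LCN2, which binds bacterial siderophores, went from 37.3 and 38.98 to 4.31 and 6.003 CPM (log2 fold change -2.89 ± 0.19, adjusted p = 4.26e-07), and C3, the central complement protein, from 407 and 579.8 to 191 and 164 CPM (log2 fold change -1.47 ± 0.17, adjusted p = 4.93e-05). SAA1 fell from 3.04 and 2.77 to 0.04902 and 0.218 CPM and SAA2 from 1.03 and 1.47 to 0 and 0.164 CPM, but reads of these near-identical genes can be split between them, so each alone is uncertain. CXCL10, a chemokine that interferons also induce, had 2 counts in UAB 1 and 0 in UAB 2, and went from 2.95 and 1.51 to 0.09803 and 0 CPM. TNF, SAA1, SAA2 and CXCL10 are near 0 with the UAB peptide and could pass the count filter through their scrambled libraries alone. Their low UAB levels are not read as a result.

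The inhibitors and subunits of NF-kappaB itself are among its targets, and those that fell had smaller fold changes than CXCL8, CXCL1 and CXCL2. NFKBIA, the inhibitor that holds NF-kappaB in the cytoplasm, went from 276 and 225 to 111 and 128 CPM (log2 fold change -1.07 ± 0.14, adjusted p = 2.50e-04). TNFAIP3, the ubiquitin-editing inhibitor known as A20, went from 59.98 and 73.2 to 24.8 and 23.1 CPM (log2 fold change -1.47 ± 0.15, adjusted p = 2.13e-05), and BIRC3, an inhibitor of apoptosis in the same pathway, from 3.93 and 3.67 to 1.13 and 1.09 CPM (log2 fold change -1.77 ± 0.33, adjusted p = 0.00316). Of the subunits, RELB (-1.08) and NFKB2 (-0.70) fell, whereas NFKB1 stood at 62.2 and 54.3 CPM in the scrambled libraries and 42.6 and 43.6 CPM in the UAB libraries and did not pass (log2 fold change -0.43 ± 0.14, adjusted p = 0.0603). SOD2, a mitochondrial superoxide dismutase, stood at 71.5 and 74.2 CPM in the scrambled libraries and 64.3 and 69.7 CPM in the UAB libraries and did not pass either (-0.12). TRAF1 was the only one of the 31 with a positive fold change (0.89, adjusted p = 0.0765).

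**Figure D3:**
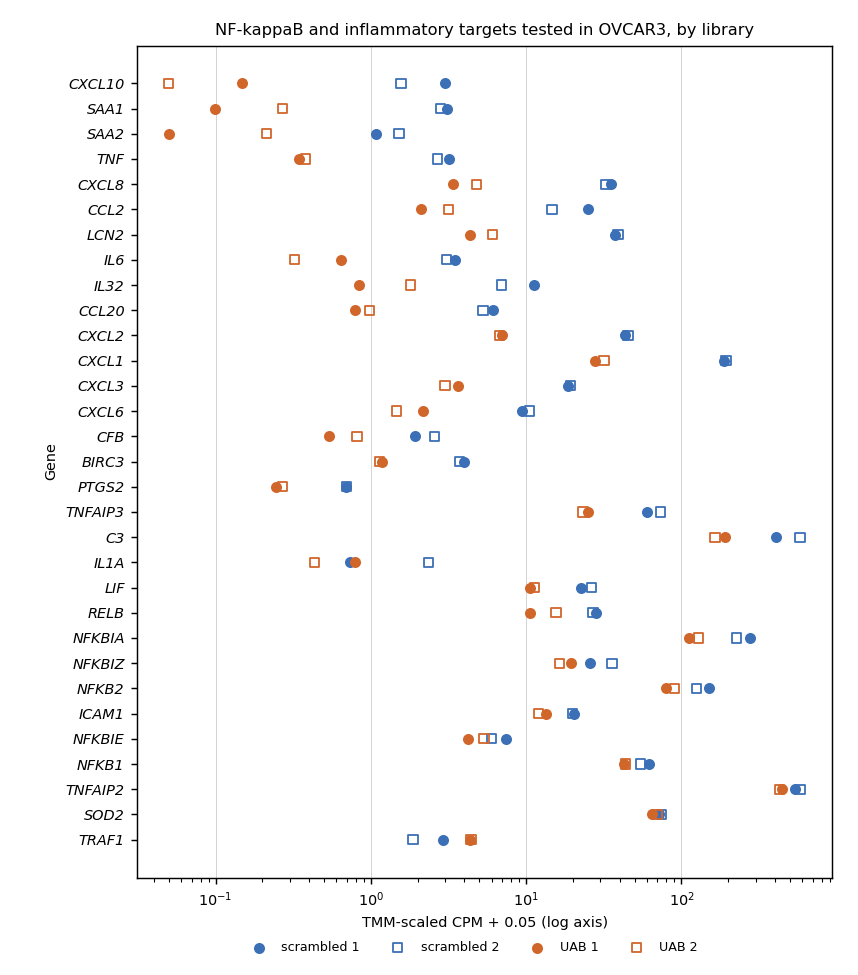
All 31 tested NF-kappaB and inflammatory targets are shown by library, ordered by fitted log2 fold change, with TMM-scaled CPM plus 0.05 on a log axis. Blue marks are scrambled and orange marks UAB libraries, filled circles replicate 1 and open squares replicate 2. For 29 of the 31 genes both orange marks lie to the left of both blue marks, as for 26.7% of all tested genes. The gap narrows from the chemokines and cytokines at the top to NFKB1, TNFAIP2 and SOD2 near the bottom.

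A group of these chemokine genes lies together on chromosome 4. The tested genes from the start of CXCL8 (73740519) to the end of CXCL2 (74099196, GRCh38) were CXCL8, CXCL6, CXCL1, CXCL3 and CXCL2, and all 5 fell. CXCL6 went from 9.405 and 10.5 to 2.11 and 1.42 CPM (log2 fold change -2.48 ± 0.26, adjusted p = 2.94e-05) and CXCL3 from 18.6 and 19.2 to 3.58 and 2.95 CPM (log2 fold change -2.53 ± 0.20, adjusted p = 2.78e-06). The 5 log2 fold changes lay between -3.07 and -2.48. Printed here, because these genes fell together and NF-kappaB is known to act on them, are the 250 bases before the RefSeq start of 3 of them and of the inhibitors TNFAIP3 and NFKBIA, from RefSeq on GRCh38.p14, written 5′ to 3′ on the strand of the gene. Capitals mark each match to GGNNTTTCC on either strand, a pattern of the NF-kappaB binding motif, and to TGANTCA, the AP-1 motif, which only CXCL8 holds among these 5. The windows are chr4:73869143-73869392 (plus strand), chr4:74099196-74099445 (minus), chr4:73740319-73740568 (plus), chr6:137867009-137867258 (plus) and chr14:35404750-35404999 (minus).
CXCL1: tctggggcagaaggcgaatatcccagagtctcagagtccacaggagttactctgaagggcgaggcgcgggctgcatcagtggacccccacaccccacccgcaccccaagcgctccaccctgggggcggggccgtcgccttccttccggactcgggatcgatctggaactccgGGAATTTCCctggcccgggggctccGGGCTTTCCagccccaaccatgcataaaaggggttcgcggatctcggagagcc
CXCL2: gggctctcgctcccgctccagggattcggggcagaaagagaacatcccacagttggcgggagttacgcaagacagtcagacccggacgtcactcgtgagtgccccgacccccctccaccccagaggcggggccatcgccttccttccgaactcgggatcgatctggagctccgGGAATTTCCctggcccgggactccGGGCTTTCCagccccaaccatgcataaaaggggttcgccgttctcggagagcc
CXCL8: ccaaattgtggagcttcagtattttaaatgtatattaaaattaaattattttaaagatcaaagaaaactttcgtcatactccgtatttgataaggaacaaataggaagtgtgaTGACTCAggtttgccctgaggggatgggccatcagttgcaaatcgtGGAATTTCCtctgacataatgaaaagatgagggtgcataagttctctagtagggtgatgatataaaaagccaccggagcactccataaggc
TNFAIP3: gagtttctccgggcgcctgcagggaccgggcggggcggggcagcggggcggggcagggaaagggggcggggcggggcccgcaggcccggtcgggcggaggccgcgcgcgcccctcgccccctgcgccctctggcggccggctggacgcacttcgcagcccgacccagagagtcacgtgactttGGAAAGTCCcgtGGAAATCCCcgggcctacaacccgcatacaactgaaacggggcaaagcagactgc
NFKBIA: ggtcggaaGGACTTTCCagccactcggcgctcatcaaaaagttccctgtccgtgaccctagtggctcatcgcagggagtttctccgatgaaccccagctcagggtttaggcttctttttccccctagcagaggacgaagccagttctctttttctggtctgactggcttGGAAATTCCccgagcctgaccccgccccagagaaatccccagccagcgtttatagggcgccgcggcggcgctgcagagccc

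CXCL1, CXCL2, TNFAIP3 and NFKBIA each held 2 matches to the NF-kappaB pattern in this window and CXCL8 held 1. Of the 27305 promoters of this length in the RefSeq table, 5.48% held a match to GGNNTTTCC and 6.596% a match to TGANTCA. The windows above were picked from genes on which NF-kappaB is known to act, so these shares cannot be set against them. The window of LCN2, which also fell, held 1 match to TGANTCA and none to GGNNTTTCC. Only 18 of the 24 fallen members had an entry in the table, under 80%, so a share over the list is void and is not given. A match describes these letters only and says nothing of binding.

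Interferon-stimulated genes are switched on through STAT and IRF factors when cells sense interferon or foreign nucleic acid. Of 36 tested members 16 fell and 0 rose, with a median log2 fold change of -0.57, and 13 to 16 fell with any 1 library left out. IFI27, a small protein of mitochondrial and nuclear membranes, went from 123 and 95.97 to 21.2 and 22.05 CPM (log2 fold change -2.34 ± 0.16, adjusted p = 5.85e-07). ISG15, a ubiquitin-like modifier, went from 83.6 and 66.2 to 32.9 and 33.2 CPM (log2 fold change -1.18 ± 0.15, adjusted p = 1.45e-04), and IFIT2, which binds foreign RNA, from 17.1 and 18.7 to 7.89 and 6.49 CPM (log2 fold change -1.31 ± 0.18, adjusted p = 3.59e-04). In all 3 both UAB libraries lay well below both scrambled libraries, and no called gene had overlapping groups. Further down the list, MX1, an antiviral GTPase, went from 65.2 and 62.01 to 38.2 and 27.3 CPM (log2 fold change -0.96 ± 0.16, adjusted p = 0.00154), IFIT1 from 34.5 and 30.8 to 19.9 and 13.6 CPM and IFIT3 from 19.3 and 18.8 to 11.5 and 7.97 CPM. The transcription factor IRF1 went from 14.9 and 12.9 to 6.37 and 5.02 CPM (log2 fold change -1.28 ± 0.20, adjusted p = 9.36e-04). IFITM1 and IFITM2 are near-identical to related genes, so their falls (-0.82, adjusted p 0.0536 without UAB 2, and -0.56, adjusted p 0.0709 without scrambled 1 and 0.171 without UAB 1) are uncertain.

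The windows of 3 fallen interferon-stimulated genes were picked because each holds a pattern of the interferon-stimulated response element on either strand, GAAA, 2 bases of any kind and GAAA again, in capitals. These are chr1:1013247-1013496, chr10:89392373-89392622 and chr14:94110486-94110735, all on the plus strand. The pattern occurred in 3.07% of the 27305 promoters, a share that cannot be set against windows picked for holding it, and the window of MX1, which also fell, held 0 matches. Capitals at the 5′ end of the ISG15 window are a match to GGNNTTTCC.
ISG15: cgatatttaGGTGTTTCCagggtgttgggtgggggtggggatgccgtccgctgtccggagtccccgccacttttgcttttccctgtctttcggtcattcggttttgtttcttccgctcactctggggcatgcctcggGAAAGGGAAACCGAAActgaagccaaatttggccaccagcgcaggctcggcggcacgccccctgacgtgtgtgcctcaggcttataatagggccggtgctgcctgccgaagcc
IFIT1: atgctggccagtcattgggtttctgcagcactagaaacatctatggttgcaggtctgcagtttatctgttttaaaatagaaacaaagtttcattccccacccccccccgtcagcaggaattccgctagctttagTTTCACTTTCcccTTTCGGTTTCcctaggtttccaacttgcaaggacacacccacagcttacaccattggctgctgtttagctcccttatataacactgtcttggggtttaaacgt
IFI27: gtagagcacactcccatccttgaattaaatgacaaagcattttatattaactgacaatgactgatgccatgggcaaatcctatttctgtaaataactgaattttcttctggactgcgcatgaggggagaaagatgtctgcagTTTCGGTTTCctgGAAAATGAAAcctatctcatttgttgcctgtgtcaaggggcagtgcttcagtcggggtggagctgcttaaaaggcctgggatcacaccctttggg

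Only 12 of the 16 fallen members had a RefSeq entry, so a share over this list is void as well.

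Antigen presentation genes load peptides onto HLA molecules for T cells. Of 25 tested members 10 fell and 0 rose (9 to 11 with any 1 library left out), with a median of -0.35. The members that fell were class II genes, class I loading genes and immunoproteasome subunits. HLA-DRA, a class II chain, went from 7.096 and 3.85 to 0.784 and 0.764 CPM (log2 fold change -2.81 ± 0.38, adjusted p = 2.63e-04), and CIITA, the master activator of class II genes, from 14.7 and 15.8 to 6.18 and 6.06 CPM (log2 fold change -1.32 ± 0.19, adjusted p = 3.59e-04). PSMB9, an immunoproteasome subunit, went from 7.31 and 6.22 to 1.62 and 1.26 CPM (log2 fold change -2.23 ± 0.29, adjusted p = 1.69e-04), TAP1, a peptide transporter, from 19.02 and 16.2 to 7.499 and 8.08 CPM (log2 fold change -1.18 ± 0.18, adjusted p = 7.01e-04) and NLRC5, the activator of class I genes, from 7.74 and 6.27 to 2.94 and 2.78 CPM (log2 fold change -1.29 ± 0.25, adjusted p = 0.00399). The UAB libraries of each of these lay below both scrambled libraries, which holds for every gene called lower. HLA-B fell (-0.92) and HLA-DRB1 fell (-3.27), with the caveat that HLA genes share reads. CIITA lies on the part of chromosome 16 described below, where 20.5% of tested genes fell. Off chromosome 16, which also holds NLRC5 and PSMB10, 7 of 22 tested members fell. The macrophage and monocyte marker CD14 moved the same way, from 5.22 and 7.39 to 1.03 and 0.982 CPM, as did the summed immune marker level given above. Their part in this result was not tested.

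Immediate early genes answer growth factor and stress signals within minutes, and FOS and JUN proteins join as AP-1. Of 19 tested members 11 fell, 0 rose and 8 did not pass (median -0.70, and 10 to 11 fell with any 1 library left out). FOS stood at 193 and 315 CPM in the scrambled libraries and 73.9 and 72.1 CPM in the UAB libraries (log2 fold change -1.80 ± 0.19, adjusted p = 2.87e-05), and FOSB went from 24.3 and 56.6 to 8.09 and 6.55 CPM (log2 fold change -2.46 ± 0.30, adjusted p = 1.19e-04). The scrambled libraries spread more than the UAB libraries in both genes, with scrambled 2 the highest. The groups stayed apart, as in every called gene. JUNB went from 134 and 154 to 62.5 and 69.04 CPM (log2 fold change -1.13 ± 0.14, adjusted p = 1.13e-04), EGR1, a zinc finger factor, from 211 and 345 to 129.9 and 125 CPM (log2 fold change -1.13 ± 0.19, adjusted p = 0.00116) and ATF3, a stress-induced factor, from 25.1 and 20.5 to 9.95 and 8.08 CPM (log2 fold change -1.34 ± 0.18, adjusted p = 2.67e-04). JUN fell as well (-0.70).

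MAPK feedback genes are induced by ERK signalling and restrain it. Here 9 of 20 fell and 3 rose, and 2 to 3 rose and 6 to 9 fell with any 1 library left out. The phosphatases DUSP5, from 36.04 and 47.8 to 12.3 and 13.1 CPM (log2 fold change -1.72 ± 0.17, adjusted p = 1.63e-05), and DUSP2, from 20.1 and 18.4 to 2.89 and 6.11 CPM (log2 fold change -2.10 ± 0.26, adjusted p = 1.29e-04), fell, as did IER3, from 39.8 and 42.1 to 16.7 and 17.4 CPM (log2 fold change -1.26 ± 0.15, adjusted p = 7.04e-05). The phosphatase DUSP4 rose from 0.812 and 1.04 to 2.99 and 5.02 CPM (log2 fold change 2.10 ± 0.38, adjusted p = 0.00234) and the receptor tyrosine kinase inhibitor SPRY2 from 7.95 and 8.25 to 13.8 and 14.4 CPM (log2 fold change 0.80 ± 0.18, adjusted p = 0.0104), so dual-specificity phosphatases moved in both directions.

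**Figure D4:**
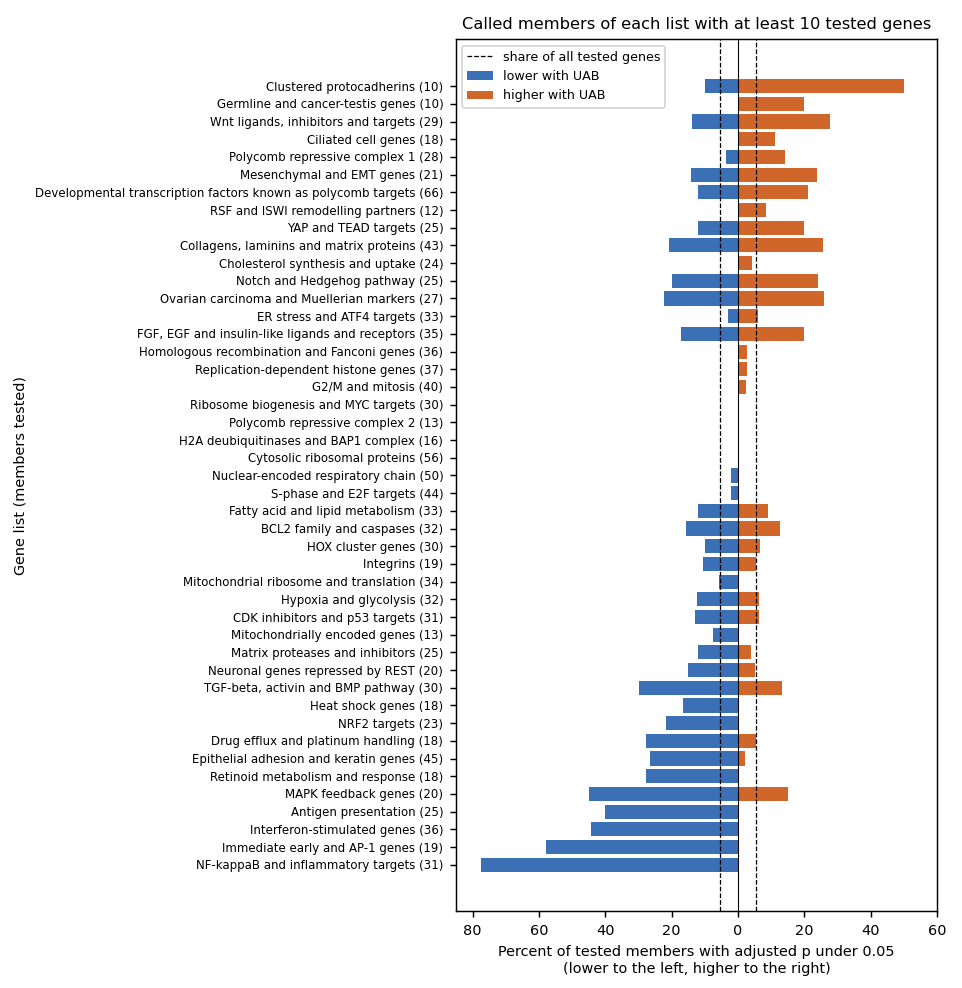
For each gene list with at least 10 tested members (number in brackets), the bar to the left is the percentage of tested members that fell and the bar to the right the percentage that rose. Dashed lines mark 5.46% lower and 5.45% higher over all tested genes. Lists and members were chosen with earlier results of these data known. The NF-kappaB list reaches 77.4% lower, the immediate early list 57.9% and the interferon list 44.4%, while the ribosomal protein, Polycomb repressive complex 2 and H2A deubiquitinase lists have no bar.

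The H2A mark is written, read and removed by several complexes. Of 28 tested Polycomb repressive complex 1 genes 4 rose (14.3%, against 5.45% of all genes) and 1 fell (3.57%, against 5.46%), and the counts were 1 and 0 without scrambled 1 or UAB 1, 4 and 0 without scrambled 2, 5 and 0 without UAB 2. BMI1, a core subunit, went from 14.3 and 14.3 to 22.5 and 21.5 CPM (log2 fold change 0.62 ± 0.16, adjusted p = 0.0198, and 0.07003 without scrambled 1 and 0.0735 without UAB 1), AUTS2, an accessory subunit, from 61.5 and 78.3 to 116 and 100.4 CPM (log2 fold change 0.63 ± 0.15, adjusted p = 0.0144, and 0.1798 without scrambled 1 and 0.0506 without UAB 1), and DCAF7 from 101 and 115 to 172 and 149 CPM (log2 fold change 0.57 ± 0.14, adjusted p = 0.0151, and 0.144 without scrambled 1 and 0.0967 without UAB 1). PCGF5, the core subunit of a variant complex, fell from 52.1 and 49.4 to 37.9 and 34.7 CPM (log2 fold change -0.48 ± 0.14, adjusted p = 0.0372, and 0.195 without scrambled 1, 0.0634 without scrambled 2, 0.0667 without UAB 1 and 0.173 without UAB 2). Most of these calls thus rest on scrambled 1 and UAB 1. None of 13 tested Polycomb repressive complex 2 genes passed, nor any of 16 tested H2A deubiquitinase and BAP1 complex genes. Of the most abundant members of those lists, RBBP4, a histone-binding subunit, stood at 123 and 113 CPM in the scrambled libraries and 154 and 157 CPM in the UAB libraries (adjusted p = 0.0667) and USP22, a deubiquitinase of the SAGA complex, at 331 and 365 CPM in the scrambled libraries and 453 and 406 CPM in the UAB libraries (adjusted p = 0.159). Of 12 tested RSF and ISWI remodelling genes only BPTF rose (log2 fold change 0.65 ± 0.18, adjusted p = 0.0348, and 0.317 without scrambled 1 and 0.109 without UAB 1), and the counts were 0 and 0 without scrambled 1 or UAB 1, 2 and 0 without scrambled 2 or UAB 2. RSF1's partner SMARCA5 stood at 143 and 149 CPM in the scrambled libraries and 141 and 127 CPM in the UAB libraries and did not pass (adjusted p = 0.626).

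Developmental transcription factors known as Polycomb targets moved in both directions. Of 123 listed, 57 lay below the filter, and of the 66 tested 14 rose (21.2%, against 5.45% of all genes), 8 fell (12.1%, against 5.46%) and 44 did not pass. Members near 0 with 1 peptide could pass the filter through the other group alone, so these shares are uncertain. Beside LHX1, WT1, a zinc finger factor of kidney and gonad that also marks serous carcinoma, stood at 10.4 and 16.6 CPM in the scrambled libraries and 61.4 and 63.1 CPM in the UAB libraries (log2 fold change 2.20 ± 0.19, adjusted p = 5.56e-06). NR2F1, a nuclear receptor, went from 1.41 and 2.03 to 11.9 and 10.9 CPM (log2 fold change 2.73 ± 0.25, adjusted p = 8.95e-06) and SOX3, a factor of early neural cells, from 3.42 and 3.46 to 13.9 and 13.6 CPM (log2 fold change 1.998 ± 0.21, adjusted p = 2.19e-05). NKX2-1, a thyroid and lung factor, went from 10.05 and 9.07 to 19.9 and 23.03 CPM (log2 fold change 1.16 ± 0.17, adjusted p = 4.99e-04). In WT1 and SOX3 the 2 UAB libraries were nearly equal, while those of NKX2-1 lay further apart than its scrambled libraries. In each of these genes both UAB libraries lay above both scrambled libraries, as in every gene called higher.

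Factors of the same list that fell include FOXC1, a forkhead factor, from 31.7 and 30.8 to 12.7 and 14.03 CPM (log2 fold change -1.23 ± 0.15, adjusted p = 1.40e-04), and GATA2, a zinc finger factor of blood and other lineages, from 30.99 and 20.2 to 9.31 and 9.77 CPM (log2 fold change -1.42 ± 0.20, adjusted p = 3.93e-04). PITX1 fell from 24.9 and 11.3 to 2.45 and 4.53 CPM (log2 fold change -2.38 ± 0.34, adjusted p = 4.29e-04). HOX cluster genes, which pattern the body axis, had 2 rises of 30 tested (6.67%, against 5.45% of all genes) and 3 falls (10%, against 5.46%), shares near those of all genes (1 and 2 without scrambled 1, 1 and 3 without UAB 1). HOXD8 rose from 3.76 and 4.02 to 8.04 and 8.95 CPM (log2 fold change 1.12 ± 0.22, adjusted p = 0.00454) and HOXB9 fell from 10.3 and 6.65 to 2.06 and 2.46 CPM (log2 fold change -1.91 ± 0.28, adjusted p = 4.95e-04). Clustered protocadherins are adhesion genes of neurons that share exons and are therefore uncertain one by one. Of 53 listed only 10 passed the filter, and members as low as these could pass it through their UAB libraries alone, so nothing is read from the 5 that rose and the 1 that fell among them. With no count filter 8 of 50 rose and 1 fell, and DESeq2 called 2 rises and 1 fall of 10. PCDHB12 had 0 and 1 counts with the scrambled peptide and went from 0 and 0.0432 to 1.13 and 0.819 CPM, a ratio of 45.7 (95% counting interval 7.72 to 1850.5). All 5 that rose stayed below 3 CPM.

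Wnt ligands bind Frizzled receptors and stabilise beta-catenin, and several of the pathway's targets feed back on it. Of 29 tested members 8 rose and 4 fell (7 and 2 without scrambled 2, 9 and 2 without UAB 1, 7 and 1 without UAB 2). LGR5, the receptor for R-spondins and itself a Wnt target, stood at 5.09 and 9.07 CPM in the scrambled libraries and 53.1 and 46.01 CPM in the UAB libraries (log2 fold change 2.81 ± 0.22, adjusted p = 2.48e-06). The feedback inhibitors NKD2, from 2.35 and 3.37 to 10.6 and 10.6 CPM (log2 fold change 1.89 ± 0.24, adjusted p = 1.48e-04), and AXIN2, from 3.51 and 3.197 to 7.21 and 7.09 CPM (log2 fold change 1.09 ± 0.24, adjusted p = 0.00797), rose too. Among ligands, WNT2B rose from 3.85 and 6.18 to 13.9 and 12.01 CPM (log2 fold change 1.37 ± 0.23, adjusted p = 0.00157) and WNT10A fell from 35.4 and 46.2 to 17.3 and 20.8 CPM (log2 fold change -1.10 ± 0.17, adjusted p = 7.45e-04). The transcription factor LEF1, through which beta-catenin acts, fell from 20.6 and 14.8 to 11.6 and 9.82 CPM (log2 fold change -0.72 ± 0.20, adjusted p = 0.0278, and 0.279 without scrambled 1 and 0.0717 without UAB 2).

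In the TGF-beta and BMP pathway 4 of 30 tested members rose and 9 fell (median -0.05). Without scrambled 1 the counts were 5 and 5, and without scrambled 2 they were 7 and 11. The ligands TGFB2, from 4.66 and 7.73 to 33.9 and 28.98 CPM (log2 fold change 2.34 ± 0.21, adjusted p = 7.94e-06), and BMP7 rose, and so did FST, which traps activin, from 16.1 and 20.5 to 71.95 and 77.9 CPM (log2 fold change 2.03 ± 0.16, adjusted p = 2.06e-06), and NOG, which traps BMPs, from 28.7 and 36.3 to 55.6 and 65.6 CPM (log2 fold change 0.90 ± 0.16, adjusted p = 0.00178). BMP4, another ligand, went the other way, from 31.2 and 33.4 to 10.6 and 11.1 CPM (log2 fold change -1.58 ± 0.16, adjusted p = 1.63e-05). The ID genes are direct BMP targets that block differentiation factors, and all 4 fell. ID1 stood at 827 and 596 CPM in the scrambled libraries and 308 and 363 CPM in the UAB libraries (log2 fold change -1.09 ± 0.16, adjusted p = 4.87e-04) and ID3 at 133 and 82.3 CPM in the scrambled libraries and 48.97 and 53.4 CPM in the UAB libraries (log2 fold change -1.08 ± 0.19, adjusted p = 0.00183), with ID2 and ID4 at log2 fold changes of -0.80 and -0.71, which did not pass without scrambled 1 (adjusted p = 0.445 and 0.166). In ID1, ID2, ID3 and ID4 scrambled 1 was the highest library.

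Notch and Hedgehog genes divided in the same manner, with 6 of 25 up and 5 down (5 and 3 without scrambled 1 or UAB 1, 6 and 3 without scrambled 2). LFNG, a glycosyltransferase that tunes Notch receptors, rose from 9.23 and 9.46 to 35.5 and 38.6 CPM (log2 fold change 1.99 ± 0.16, adjusted p = 2.69e-06), and PTCH1, a Hedgehog receptor and target, from 7.31 and 11.8 to 24.3 and 17.8 CPM (log2 fold change 1.14 ± 0.22, adjusted p = 0.00419). The Notch ligand JAG1 fell from 679 and 634 to 363 and 311 CPM (log2 fold change -0.96 ± 0.13, adjusted p = 2.81e-04) and the Notch target HES1 from 120.1 and 152 to 67.3 and 73.7 CPM (log2 fold change -0.95 ± 0.15, adjusted p = 7.39e-04). Of 35 growth factor ligands and receptors of the FGF, EGF and insulin-like families 7 rose and 6 fell. EGFR rose from 57.8 and 97.8 to 169.9 and 129 CPM (log2 fold change 0.94 ± 0.21, adjusted p = 0.00841, and 0.151 in DESeq2) and FGFR2 from 35.4 and 35.99 to 61.4 and 55.9 CPM (log2 fold change 0.72 ± 0.14, adjusted p = 0.003599), whereas MET, the receptor of hepatocyte growth factor, fell from 44.5 and 43.6 to 24.9 and 18.2 CPM (log2 fold change -1.03 ± 0.16, adjusted p = 9.83e-04) and TGFA, a ligand of EGFR, from 46.7 and 46.4 to 31.1 and 24.9 CPM (log2 fold change -0.73 ± 0.15, adjusted p = 0.00593). YAP and TEAD targets were mixed as well, with 5 of 25 up and 3 down (2 and 3 without scrambled 1, 8 and 5 without scrambled 2, 3 and 3 without UAB 1, 8 and 3 without UAB 2). CCN2, a matricellular protein, fell from 412 and 501 to 214 and 219 CPM (log2 fold change -1.08 ± 0.14, adjusted p = 1.44e-04), and NUAK2, a kinase, rose from 22.4 and 32.7 to 62.00 and 56.4 CPM (log2 fold change 1.10 ± 0.17, adjusted p = 8.13e-04). 

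Retinoid genes had 5 falls of 18 tested and 0 rises, among them the vitamin A transporter STRA6, from 21.97 and 27.2 to 12.8 and 12.1 CPM (log2 fold change -0.98 ± 0.17, adjusted p = 0.00167), and CYP26A1, which breaks down retinoic acid and went from 1.24 and 1.04 to 0.04902 and 0 CPM, with 1 count in all with the UAB peptide. Its scrambled to UAB ratio was 44.1 (95% counting interval 7.58 to 1774.5). CYP26A1 could pass the count filter through its scrambled libraries alone, so its low UAB level is not read as a result.

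Several keratins fell. Of 45 tested epithelial adhesion and keratin genes 12 fell and 1 rose, and the rises and falls were 0 and 11 without scrambled 1, 2 and 11 without scrambled 2, 2 and 12 without UAB 2. KRT4, a keratin of stratified mucosa, stood at 246 and 234 CPM in the scrambled libraries and 50.05 and 51.5 CPM in the UAB libraries (log2 fold change -2.24 ± 0.13, adjusted p = 2.11e-07). KRT6A, a keratin of activated epithelium, went from 18.5 and 25.2 to 6.13 and 6.77 CPM (log2 fold change -1.76 ± 0.20, adjusted p = 4.87e-05), and KRT81, a hair keratin, from 23.6 and 13.7 to 3.43 and 5.62 CPM (log2 fold change -2.05 ± 0.28, adjusted p = 2.51e-04). KRT7 and KRT19, keratins of simple epithelium, also fell (-0.74 and -0.90). The desmosomal cadherin DSC2 rose (log2 fold change 0.75 ± 0.15, adjusted p = 0.00529, and 0.0583 without scrambled 1). EPCAM, KRT8 and KRT18 did not pass, with log2 fold changes of 0.12, 0.13 and 0.20.

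Among 27 tested ovarian carcinoma and Muellerian markers 7 rose and 6 fell, and without scrambled 2 these were 4 and 5. FOLR1, the folate receptor of serous tumours, went from 15.5 and 19.2 to 34.9 and 40.2 CPM (log2 fold change 1.12 ± 0.16, adjusted p = 4.42e-04). MUC16, which encodes the tumour marker CA-125, went from 206 and 568 to 1094 and 649 CPM (log2 fold change 1.17 ± 0.33, adjusted p = 0.0347), with scrambled 1 far below scrambled 2. MSLN, the surface protein mesothelin, fell from 209.7 and 202 to 97.7 and 108 CPM (log2 fold change -1.004 ± 0.13, adjusted p = 1.84e-04), and SLPI, a secreted protease inhibitor, from 316 and 359 to 170.0 and 207 CPM (log2 fold change -0.84 ± 0.14, adjusted p = 0.00137). MSLN also lies on the stretch of chromosome 16 given below. The ciliated cell factor FOXJ1 rose from 0.983 and 1.08 to 4.71 and 7.04 CPM (log2 fold change 2.50 ± 0.33, adjusted p = 1.89e-04). DNAH9, a dynein of motile cilia, had 0 counts in the scrambled libraries and stood at 1.03 and 0.709 CPM in the UAB libraries, at least 13.6-fold higher against a floor of 3 counts over the group. It passed the count filter through its UAB libraries alone and was not tested without UAB 1, so nothing is read from its call. The other 16 of 18 tested ciliated cell genes did not pass, and without UAB 1 only 1 rose.

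Matrix genes changed often and without a common direction. Of 43 tested collagens, laminins and other matrix proteins 11 rose and 9 fell (6 and 10 without scrambled 1). COL5A2 rose from 27.1 and 23.9 to 52.3 and 45.8 CPM (log2 fold change 0.95 ± 0.15, adjusted p = 8.02e-04) and COL6A2 from 25.01 and 20.96 to 40.2 and 51.6 CPM (log2 fold change 0.996 ± 0.16, adjusted p = 0.00118). COL8A1, a short-chain collagen, fell from 49.3 and 57.2 to 13.3 and 10.7 CPM (log2 fold change -2.15 ± 0.17, adjusted p = 2.11e-06) and SPOCK1, a proteoglycan, from 370.0 and 362 to 166 and 143 CPM (log2 fold change -1.24 ± 0.13, adjusted p = 3.17e-05). LAMA3, a chain of the laminin of epithelial anchoring, fell from 219 and 226 to 80.6 and 63.9 CPM (log2 fold change -1.62 ± 0.15, adjusted p = 6.65e-06). In the mesenchymal list 5 of 21 rose and 3 fell (3 and 2 without scrambled 1, 4 and 1 without UAB 1). SPARC, a matrix protein of remodelling tissue, went from 3.21 and 2.51 to 22.6 and 22.3 CPM (log2 fold change 2.97 ± 0.20, adjusted p = 5.92e-07). The factors TWIST1, from 22.8 and 31.2 to 13.5 and 14.8 CPM (log2 fold change -0.93 ± 0.18, adjusted p = 0.00359), and ZEB2, from 1.11 and 0.605 to 0.147 and 0.164 CPM (log2 fold change -2.43 ± 0.73, adjusted p = 0.0452, and 0.488 without scrambled 1, 0.0673 without scrambled 2, 0.164 without UAB 1 and 0.103 without UAB 2, with 0.121 in DESeq2), which drive the mesenchymal state, fell. Of 25 matrix proteases and inhibitors 1 rose and 3 fell (0 and 4 without scrambled 1 or UAB 2, 1 and 6 without scrambled 2, 0 and 5 without UAB 1), among them SERPINA1 (-1.002) and PLAU, the urokinase (-0.87). Of 19 integrins ITGB5 rose and ITGA3 and ITGA4 fell. ITGA4 lost its call with each library left out (adjusted p = 0.0452, and 0.256 without scrambled 1, 0.06903 without scrambled 2, 0.0515 without UAB 1 and 0.1249 without UAB 2), and in DESeq2 (0.104), limma-voom (0.0608) and with library totals only (0.0554), so only ITGB5 and ITGA3 kept theirs. Fibroblast markers did not move as one, since POSTN rose (2.36) and COL1A2 fell (-1.37) while COL1A1 and FBLN1 did not pass.

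Few members of the proliferation lists passed. Of 44 tested S-phase and E2F targets 0 rose and 1 fell (E2F1, log2 fold change -0.46 ± 0.14, adjusted p = 0.0435, and 0.378 without scrambled 1, 0.211 without UAB 1 and 0.0586 without UAB 2), and of 40 G2/M genes 1 rose and 0 fell (CENPF, log2 fold change 0.59 ± 0.15, adjusted p = 0.0178, and 0.183 without scrambled 1 and 0.109 without UAB 1). Left-out libraries gave rises and falls of 0 and 0 without scrambled 1 or UAB 1 or UAB 2, 0 and 3 without scrambled 2 for the former, and of 0 and 0 without scrambled 1 or UAB 1, 3 and 0 without scrambled 2, 4 and 0 without UAB 2 for the latter. None of 56 cytosolic ribosomal proteins passed, and none of 30 ribosome biogenesis genes (1 of each fell without scrambled 2, and 1 biogenesis gene without UAB 1). At an unadjusted level of 0.05, 2383 genes were higher and 2275 lower over all tested genes. Of 37 replication-dependent histone genes, which poly-A capture measures poorly, 1 rose, H2BC12 (adjusted p = 0.0266, and 0.06198 without scrambled 1, 0.139 without scrambled 2 and 0.1505 without UAB 2).

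Among genes of cell cycle arrest and death, members moved both ways. Of the kinase inhibitors and p53 targets 6.45% rose and 12.9% fell, against 5.45% and 5.46% of all genes. Of the BCL2 family genes and caspases 12.5% rose and 15.6% fell. Of 31 cyclin-dependent kinase inhibitors and p53 targets 2 rose and 4 fell (1 and 3 without scrambled 1 or UAB 1). TP53INP1, a p53 target, rose from 12.6 and 18.4 to 72.2 and 59.8 CPM (log2 fold change 2.09 ± 0.18, adjusted p = 6.22e-06), whereas the death receptor FAS fell from 43.3 and 42.4 to 12.4 and 10.9 CPM (log2 fold change -1.87 ± 0.16, adjusted p = 3.79e-06) and the kinase inhibitor CDKN2B from 79.4 and 76.4 to 37.4 and 29.4 CPM (log2 fold change -1.22 ± 0.15, adjusted p = 1.16e-04). Of 32 BCL2 family genes and caspases 4 rose and 5 fell (1 and 4 without scrambled 1). The pro-apoptotic BCL2L11 rose (log2 fold change 0.63 ± 0.14, adjusted p = 0.009096, and 0.102 without scrambled 1), as did BMF (log2 fold change 0.74 ± 0.17, adjusted p = 0.01303, and 0.165 without scrambled 1), and the pro-apoptotic PMAIP1 fell (log2 fold change -0.80 ± 0.15, adjusted p = 0.00363).

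Stress and metabolic lists held a few large changes. Of the endoplasmic reticulum stress and ATF4 list 6.06% rose and 3.03% fell, near the 5.45% and 5.46% of all genes. Of the hypoxia and glycolysis list 6.25% rose and 12.5% fell. NRF2 targets, which guard against oxidants, had 5 falls of 23 and 0 rises (0 and 3 without UAB 1), led by the iron store FTH1 at 3338 and 2820.5 CPM in the scrambled libraries and 1705 and 1856 CPM in the UAB libraries (log2 fold change -0.79 ± 0.13, adjusted p = 0.00113). Of 18 heat shock genes 3 fell and 0 rose. CRYAB, a small heat shock protein, went from 108 and 104 to 26.96 and 33.9 CPM (log2 fold change -1.81 ± 0.15, adjusted p = 3.63e-06) and HSPB1 from 1271 and 885 to 473 and 626 CPM (log2 fold change -0.97 ± 0.17, adjusted p = 0.00225). ATF5, a stress transcription factor, rose from 15.3 and 12.2 to 46.02 and 56.5 CPM (log2 fold change 1.90 ± 0.17, adjusted p = 6.64e-06), and HSP90B1, a chaperone of the endoplasmic reticulum, from 486 and 519 to 742 and 798 CPM (log2 fold change 0.62 ± 0.13, adjusted p = 0.00526). The fatty acid desaturase SCD rose from 283 and 344 to 826 and 702 CPM (log2 fold change 1.29 ± 0.14, adjusted p = 4.57e-05), while of 24 cholesterol synthesis genes only TM7SF2 rose (adjusted p = 0.0397, and 0.341 without scrambled 1 and 0.205 without UAB 2). Of 33 genes of fatty acid and lipid metabolism 3 rose and 4 fell, among the latter CPT1A, the carnitine transferase of fatty acid oxidation (-0.67). In the hypoxia and glycolysis list 2 of 32 rose and 4 fell (1 and 3 without scrambled 1, 1 and 2 without UAB 1). CA12, a carbonic anhydrase of hypoxic tumours, fell from 55.1 and 37.9 to 12.5 and 11.8 CPM (log2 fold change -1.93 ± 0.19, adjusted p = 1.15e-05). Of 3 tested metallothioneins MT2A fell from 85.03 and 51.5 to 19.2 and 25.98 CPM (log2 fold change -1.60 ± 0.21, adjusted p = 2.32e-04). Of 33 genes of endoplasmic reticulum stress and ATF4 signalling 2 rose, ATF5 and HSP90B1, and 1 fell, DDIT4 (adjusted p = 0.0267, and 0.233 without scrambled 1, 0.0917 without UAB 1 and 0.0857 without UAB 2), and the rises and falls were 2 and 0 without scrambled 1 or UAB 1, 2 and 4 without scrambled 2, 2 and 2 without UAB 2.

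Each call among the mitochondrial genes was lost without 1 or more of the libraries. Of 50 nuclear-encoded respiratory chain genes 0 rose and 1 fell, NDUFB10 (adjusted p = 0.03200, and 0.347 without scrambled 1 and 0.191 without UAB 1). Of 34 genes of mitochondrial translation 0 rose and 2 fell, MRPS35 (adjusted p = 0.0245, and 0.346 without scrambled 1 and 0.08002 without UAB 1) and TUFM (adjusted p = 0.0443, and 0.405 without scrambled 1 and 0.258 without UAB 1). Of the 13 mitochondrially encoded genes only MT-ND3 fell (adjusted p = 0.0434, and 0.107 without scrambled 1, 0.0705 without scrambled 2 and 0.4004 without UAB 1), but 10 of the 13 were lower in both UAB libraries than in both scrambled libraries, 5 fell with no count filter and 7 with all 13 libraries in 1 fit, and their median log2 fold change was -0.27. Over all tested genes 26.7% were lower in both UAB libraries than in both scrambled libraries. Falls over all genes numbered 1261 with no count filter and 1805 with all 13 libraries in 1 fit, against 1003 in the main fit. Mitochondrial counts from those settings are therefore not comparable with the main one. NDUFB10 and TUFM lie on the stretch of chromosome 16 given below.

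Of 18 tested drug efflux and platinum handling genes 1 rose and 5 fell (0 and 4 without scrambled 1 or UAB 1, 2 and 2 without scrambled 2, 2 and 3 without UAB 2). With all 4 libraries 5.56% of this list rose and 27.8% fell, against 5.45% and 5.46% of all genes. GSTM3, a glutathione transferase, went from 305 and 207 to 127 and 146 CPM (log2 fold change -0.91 ± 0.17, adjusted p = 0.00306). The transporters ABCC4, from 29.3 and 28.6 to 18.4 and 18.5 CPM (log2 fold change -0.65 ± 0.15, adjusted p = 0.01102), and ABCC1, from 253 and 288 to 192 and 167 CPM (log2 fold change -0.59 ± 0.14, adjusted p = 0.0115, and 0.0634 without scrambled 2 and 0.0778 without UAB 2), fell, and ABCC1 lies on the stretch of chromosome 16 given below. Of 36 homologous recombination genes 1 rose, the kinase ATM (log2 fold change 0.92 ± 0.21, adjusted p = 0.0112, and 0.0725 without scrambled 1), and 0 fell (0 and 0 without scrambled 1, 2 and 0 without scrambled 2 or UAB 1). Germline genes had 2 rises of 10 tested (2 and 1 without scrambled 2) and neuronal genes repressed by REST 1 rise and 3 falls of 20.

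Several genes of 1 region of chromosome 19 fell. They were picked after their values were seen, because CACNG7 and CACNG6 were among the largest falls. CACNG7, CACNG8 and CACNG6 encode auxiliary subunits of calcium channels and AMPA receptors. CACNG7 stood at 68.2 and 37.9 CPM in the scrambled libraries and 2.304 and 3.27 CPM in the UAB libraries (log2 fold change -4.26 ± 0.28, adjusted p = 5.08e-07). CACNG6 went from 21.2 and 12.3 to 1.76 and 1.86 CPM and CACNG8 from 34.97 and 31.3 to 7.89 and 8.84 CPM. In all 3 both UAB libraries lay below both scrambled libraries, as in every gene called lower. MYADM, a membrane protein of myeloid differentiation in the same region, also fell, from 1097 and 954 to 402 and 452 CPM (log2 fold change -1.26 ± 0.13, adjusted p = 2.87e-05), as did NLRP12 (-3.19) and the antisense gene MYADM-AS1, whose reads cannot be told from those of MYADM because strand use is not stated. Not all of the region went down, as ENSG00000269842, listed by identifier only and lying between ZNF331 and NLRP12, rose from 1.496 and 1.12 to 3.38 and 4.04 CPM (log2 fold change 1.496 ± 0.34, adjusted p = 0.0104). ZNF331 and NDUFA3, farther out on either side, did not pass, ZNF331 at 152 and 154 CPM in the scrambled libraries and 157 and 138 CPM in the UAB libraries and NDUFA3 at 256 and 230.4 CPM in the scrambled libraries and 202 and 264 CPM in the UAB libraries.

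Longer stretches of chromosomes also differed between the peptides. From the start of chromosome 16 to 40 Mb, 482 genes were tested, 99 fell (20.5%) and 5 rose (1.04%), and the median log2 fold change was -0.40. The summed level of these genes was 29362 and 25936 CPM in the scrambled and 19859 and 21593 CPM in the UAB libraries, so both UAB libraries lay below both scrambled ones. On the rest of chromosome 16, 8 of 356 rose and 10 fell, with a median of 0.0033. On chromosome 11 from 80 Mb to the end, 38 of 258 rose and 4 fell, with a median of 0.35, whereas the 10 Mb segment that holds RSF1, from 70 to 80 Mb, had a median of 0.056. The summed level from 80 Mb was 6358 and 7501 CPM in the scrambled and 8387 and 8108 CPM in the UAB libraries. There the scrambled libraries lay further apart than scrambled 2 and either UAB library. Among 10 Mb segments with at least 20 tested genes, chromosome 10 from 10 to 20 Mb had the highest median (0.456, 7 of 45 rose, 0 fell). These boundaries were chosen after the values were seen. A difference in chromosome copies between the scrambled and UAB cells was not tested and cannot be told apart from an effect of the peptide in these counts. Without the first 40 Mb of chromosome 16, 996 genes rose and 904 fell. CIITA, MSLN, ABCC1, IL32 and CLDN6 lie on that stretch, and ATM and TRPC6 on the raised part of chromosome 11, as do BIRC3 and CRYAB, which fell.

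The OVCAR3 changes were then set beside SKOV3, a second ovarian carcinoma line of the series, in which 3 libraries with RSF1delUAB (RSF1 without its UAB region) were compared with 3 libraries with full-length RSF1. The labels give no doxycycline for SKOV3. The 2 comparisons share no library, and each was fitted in its own table. In SKOV3 20.2% of 16735 tested genes were higher and 18.5% lower with RSF1delUAB. Of the genes tested in both lines, 779 had risen in OVCAR3, of which 296 (38.0%) were also higher and 146 (18.7%) lower in SKOV3, where 20.98% of the shared genes were higher and 18.2% lower. Of the 813 that had fallen, 262 (32.2%) were also lower and 204 (25.1%) higher. The shared rises are 9.40% of the SKOV3 rises and the shared falls 9.58% of the SKOV3 falls. Across the 15004 shared genes, which are not independent replicates, the log2 fold changes correlated weakly (Pearson r = 0.075).

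NF-kappaB targets were lower in both lines. Of the 28 members tested in both, 21 had fallen in OVCAR3 and all 21 were also lower in SKOV3, where 27 of the 28 were lower. CXCL8 went from 332 ± 65.9 to 18.1 ± 1.48 CPM in SKOV3 (mean ± SD, n = 3, log2 fold change -4.19), beside -3.07 in OVCAR3. CXCL1 went from 423 ± 60.7 to 57.5 ± 0.334 CPM (-2.88, beside -2.68) and LCN2 from 127 ± 14.3 to 28.2 ± 1.77 CPM (-2.17, beside -2.89). Interferon-stimulated genes were mixed in SKOV3. Of 34 tested in both, 16 had fallen in OVCAR3, of which 2 were lower (ISG15 and BST2) and 7 higher in SKOV3. IFI27 went from 22.7 ± 3.996 to 38.9 ± 2.99 CPM in SKOV3 (log2 fold change 0.78), against -2.34 in OVCAR3. The difference between the lines was not tested, and the interventions differ, a peptide in one and a deletion within an added gene in the other.

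**Figure D5:**
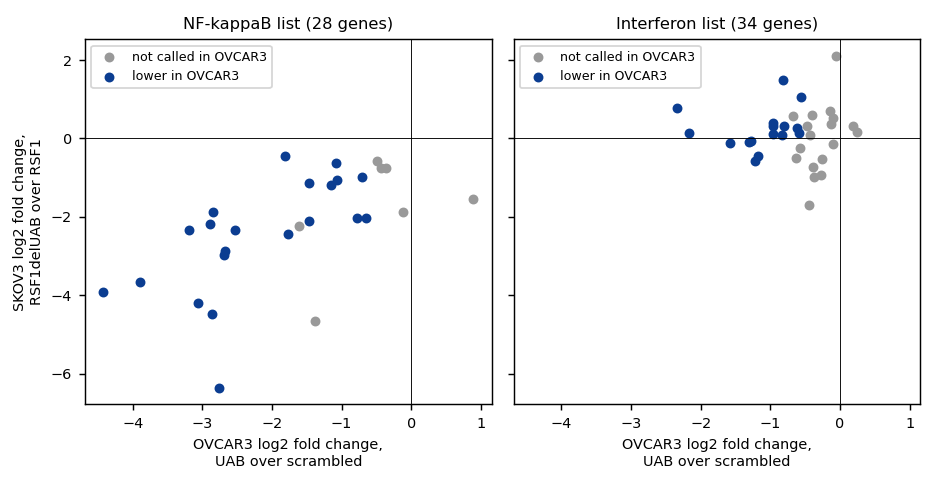
Each point is a gene tested in both lines, with its OVCAR3 log2 fold change (UAB over scrambled) on the horizontal axis and its SKOV3 log2 fold change (RSF1delUAB over RSF1) on the vertical axis. Blue points fell in OVCAR3 and grey points did not pass there. On the left, all 21 blue points of the NF-kappaB list lie below 0 on both axes, and on the right the 16 blue points of the interferon list lie on both sides of 0 in SKOV3.

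Single genes outside the NF-kappaB list, chosen after their values were seen, also moved the same way in both lines. SPARC rose in OVCAR3 (2.97) and went from 4.36 ± 1.04 to 30.4 ± 2.49 CPM in SKOV3 (2.80). NR2F1 rose in OVCAR3 (2.73) and went from 3.22 ± 0.315 to 20.04 ± 1.65 CPM in SKOV3 (2.64). IDO1 fell in OVCAR3 (-3.83) and went from 90.7 ± 4.92 to 36.8 ± 1.91 CPM (-1.30). IGFN1 had nearly the same fold change in both, -2.95 and -2.86. Others went apart. FOS fell in OVCAR3 and was higher in SKOV3, from 4.35 ± 0.947 to 44.1 ± 1.06 CPM (3.34), and TGFB2 rose in OVCAR3 and was lower in SKOV3 (2.34 and -1.86). RSF1 itself was lower with RSF1delUAB than with RSF1 in SKOV3 (-0.56, adjusted p = 5.07e-06). RSF1delUAB lacks part of the gene, and counts per gene do not separate construct transcripts from the line's own RSF1. Whether the constructs were at equal levels therefore cannot be read from these counts.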

How the data were processed

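Poly-A RNA of 13 libraries of 2 ovarian cancer lines was sequenced, and the 4 OVCAR3 libraries are the ones compared. The authors deposited read counts per gene, whole numbers and not normalized. The submitters' processing notes name FastQC, STAR 2.7.9a and Subread and the builds GRCh38, hg38 and GRCm38, while no annotation release or strand setting is given in the sources used here. A deposited column of scrambled 2 carries an unexplained letter in its name. Of 62703 genes listed, 18359 passed edgeR's filterByExpr (minimum count 10).

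UAB and scrambled libraries were compared with edgeR 4.0.16 (R 4.3.3; TMM scaling, quasi-likelihood test, Benjamini-Hochberg adjustment over all tested genes, threshold 0.05), after the code had been tested on simulated data. Alternatives used DESeq2 1.42.0, limma 3.58.1, other scalings, filters and designs, and each library left out. The SKOV3 groups were fitted alone. Genes were named by size among called genes with a mean of at least 2 CPM (the 12 largest in each direction, and 6 among those of at least 100 CPM), with groups that do not overlap, leaving out bare identifiers, pseudogenes and antisense or long intergenic names, then up to 3 called members a list in each direction, by adjusted p. Others were picked after their values were seen. Members and gene lists were chosen with earlier results of these data known. Promoters are RefSeq's, the first entry where a gene has several. Intervals and floors cover counting error only. Some results are not reported here.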

Additional observations from a re-analysis of the deposited data

How the results depend on the processing

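Higher and lower genes numbered 1001 and 1003, and by leaving out 1 library they ranged from 633 to 1194 and from 707 to 1045, with the lowest of both without scrambled 1. These fits have 1 residual degree of freedom and took each gene's spread from the trend over all genes. All 13 libraries in 1 fit gave 1826 and 1805, and testing against a fold change of 1.5 gave 266 and 289. With the replicate block the counts were 928 and 842, and the deviations of same-numbered libraries correlated at -0.278, so the numbers were not taken as pairs. The crossed replicate block, added after the data were seen, gave 2560 and 2537. Library totals without TMM gave 1094 and 855, a lower share of 43.9% against 50.05%. Other scalings, filters and tools moved neither count by more than 1.5 times. Genes called the same way in SKOV3 numbered 558, and 968 with all 13 libraries in 1 fit. RSF1, 0.11 on the log2 scale, ranged from -0.11 without UAB 1 to 0.31 without UAB 2 and was -0.043 without scrambled 1; the cause was not tested. Of 184 genes named by rule, 173 kept their call in DESeq2, 181 in limma-voom, 167 with the replicate block, and 147, 171, 156 and 170 without scrambled 1, scrambled 2, UAB 1 and UAB 2. None of these reversed. Genes under 1 CPM rest on few counts.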

Other observations

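Gene families outside the lists were picked after their values were seen and are given without a test. Of 21 tested semaphorins, guidance cues of axons and vessels, 8 rose (38.1%, beside 5.45% of all tested genes) and 0 fell, with a median log2 fold change of 0.34. SEMA6A and SEMA6C are among the 8, and lost their calls at an adjusted p of 0.405 without scrambled 1 and 0.0906 without UAB 1 for SEMA6A, and of 0.0888 without scrambled 1 for SEMA6C, in edgeR's quasi-likelihood test. Of 8 tested guanylate-binding proteins, interferon-induced GTPases of cell defence, 4 fell (50%, beside 5.46% of all tested genes) and 0 rose, with a median of -0.82. GBP3, among the 4 that fell, lost its call without scrambled 1. GBP5 was at 149 and 128 CPM in the scrambled libraries and 67.5 and 56.0 CPM in the UAB libraries.

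Of 422 tested genes with a ZNF symbol, most of them zinc finger transcription factors, 44 rose (10.4%) and 5 fell (1.18%), beside 5.45% and 5.46% of all tested genes, and 334 had a positive log2 fold change. Of 25 small nucleolar RNA host genes 2 rose (8%) and 7 fell (28.0%). SNHG14 and SNHG16, the 2 that rose, lost their calls without at least 1 library. So did SNHG3, SNHG4, SNHG8, SNHG9 and SNHG30 among those that fell. SNHG9 and SNHG19, which both fell, lie on the stretch of chromosome 16 given above.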
